A study of Mus musculus with 6 samples.

Results

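Collagens are the fibre- and network-forming proteins of the extracellular matrix, and 36 collagen genes were followed in somite-level tissue of Dll3 mutant and wild-type mouse embryos. The genes were taken as those whose symbol consists of Col, a type number, the letter a and a chain number, and a probe set (the group of short array probes that reads a single transcript) counted only where the platform annotation gave it exactly 1 symbol. This gave 58 of 22626 probe sets and 36 of 12393 genes, with 17 probe sets for 9 fibrillar genes, 9 for 6 type IV genes and 32 for 21 genes of other types. The rule used gene symbols and no measured value, but it was chosen with earlier results of these data known.

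The mutant embryos carried the Dll3neo allele, also named Dll3tm1Rbe, on both chromosomes, and the controls were Dll3+/+, all at 9.5 days post coitum and labelled as C57BL/6. Dll3 is a member of the Delta family that acts in the Notch pathway, and its loss disturbs the formation of somites, the paired blocks of mesoderm along the trunk. The tissue was the stretch from the otic placode down to the last formed somite, or to the matching level in mutants, after removal of heart and endoderm, so neural tube, skin ectoderm and vessels of that level were included. RNA of embryos pooled by genotype, in 3 mutant and 3 wild-type pools, was read on 6 Affymetrix MOE430A arrays, and the sources used here do not give the number of embryos in a pool. The series design calls the pools biological replicates. Each deposited value is the signal of a probe set divided by a reference value of its own, which for most probe sets is the median over the 6 pools, so a value of 1 is the middle of the pools. Levels cannot be compared between genes, and whether a gene is present at all cannot be read from a ratio. The pools are numbered 1 to 3 within each genotype, and values below are given in that order.

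Every collagen is a trimer of alpha chains wound into a triple helix, and each gene encodes 1 such chain. Fibrillar collagens assemble into the banded fibrils of connective tissue and cartilage, type IV collagens form the sheet-like network of basement membranes, and the remaining types decorate fibrils, form microfilaments or short networks, or span the cell membrane. In the trunk of the embryo, basement membranes surround somites and neural tube, the notochord and later the sclerotome lay down type II collagen, and loose mesenchyme makes types I and III.

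No collagen gene passed the test for a difference between Dll3 mutant and wild-type pools. In 5 genes, 13.9% against 7.46% of all genes, the pools of the genotypes did not overlap. Among the 5 was Col8a1, whose probe sets differed in sign. In limma's moderated test with Benjamini-Hochberg adjustment over all features, 0 of 58 collagen probe sets and 0 of 36 collagen genes passed an adjusted p of 0.05, and 0% of all probe sets and 0% of all genes did. The adjusted p was 0.9997 for each of the 36 genes. At an unadjusted p under 0.05 there were 2 of 58 collagen probe sets, a share of 3.45% against 2.63% of all probe sets, and 0 of 36 collagen genes against 2.67% of all genes. The 2 probe sets were 1 of Col5a2, higher in mutant pools (1.38% of all probe sets were), and 1 of Col8a1, lower (1.25% were). The log2 differences between mutant and wild-type pools ran from -0.18 for Col19a1 to 0.19 for Col6a1, with standard errors of 0.069 to 0.13. All 36 of the 95% intervals contained 0, and together they spanned -0.37 to 0.46 on the log2 scale. The number of arrays limits the precision of these values.

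**Figure D1:**
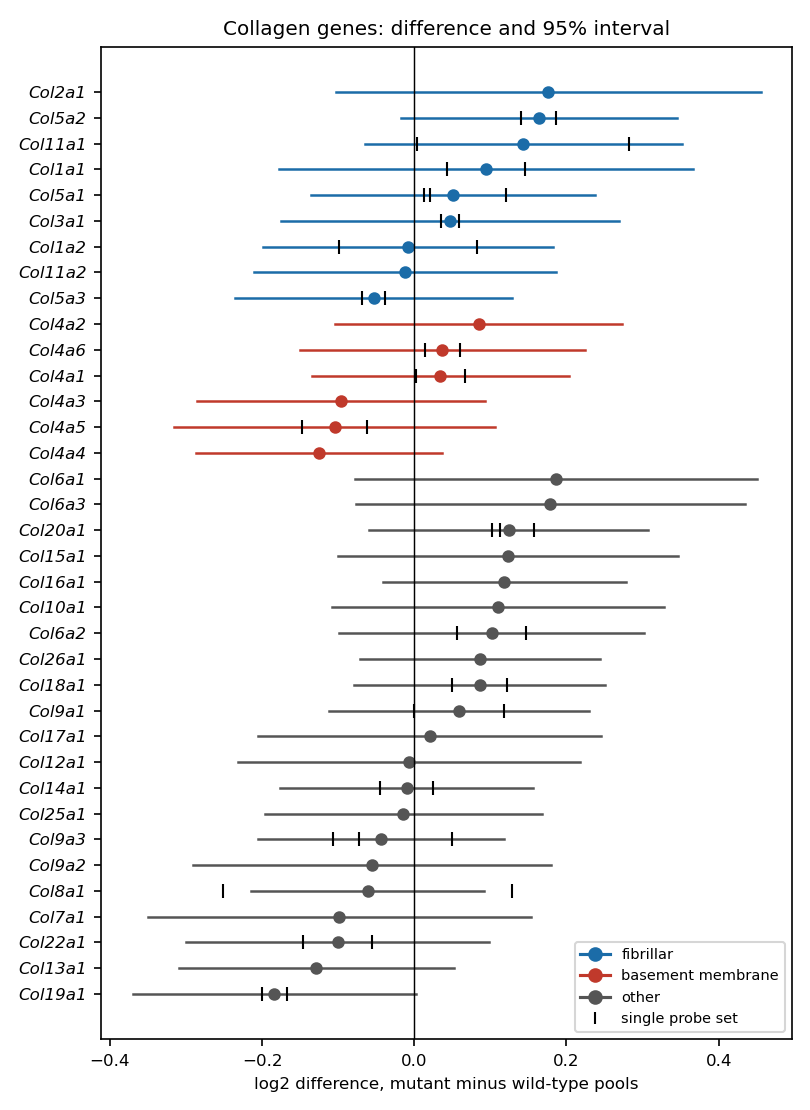
Log2 difference of each of the 36 collagen genes, mutant minus wild-type pools (3 pools each), with its 95% interval from limma as a line and the gene mean over its probe sets as a dot; black ticks are single probe sets where a gene has more than 1. Every interval crosses 0, and the ticks of Col8a1 lie on opposite sides of 0.

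The collagen genes were found on both sides of 0. Of the 36 genes, 20 had a positive and 16 a negative log2 difference, so 55.6% were positive, against 51.9% of all genes. By single probe sets 37 of 58 were positive, 63.8% against 51.5% of all probe sets. The median was 0.036 for the collagen genes and 0.003 for all genes. The fibrillar genes had a median of 0.051 (6 positive, 3 negative), the type IV genes of -0.031 (3 positive, 3 negative) and the other types of 0.020 (11 positive, 10 negative). Without wild-type pool 3 the median of the collagen genes was -0.003, with 18 positive genes. With each single pool left out in turn, the median ran from -0.003 to 0.051 and the positive genes from 18 to 24. The collagen median of a pool varied by 0.042 (SD) within a genotype. The size of the difference without regard to sign had a median of 0.09 for collagen genes and 0.054 for all genes, beside a median spread within a genotype of 0.0997 and 0.106.

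The groups did not overlap in the 5 collagen genes Col4a4, Col8a1, Col16a1, Col19a1 and Col26a1. Of these, 2 genes, Col16a1 and Col26a1, had all mutant pools above all wild-type pools, 5.56% of the 36 genes against 3.98% of all genes. The 3 others, Col4a4, Col8a1 and Col19a1, had all mutant pools below, 8.33% of the 36 genes against 3.49% of all genes. For Col8a1 this is the mean of probe sets at -0.251 and 0.129, and in the second the groups overlapped. Among collagen probe sets the groups did not overlap in 9 of 58 (15.5%, against 7.46% of all probe sets): 5 of 58 lay wholly higher (8.62%, against 4.07% of all probe sets) and 4 wholly lower (6.9%, against 3.39%). The 5 belonged to Col5a2, Col16a1, Col18a1, Col20a1 and Col26a1, and the 4 to Col4a4, Col8a1 and Col19a1, the last with both of its probe sets.

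Type I collagen, the main fibril of bone, tendon and skin, is built from the chains of Col1a1 and Col1a2. Of the Col1a1 probe sets, 1423669_at had ratios of 0.965, 1.207 and 1.035 in the mutant pools, against 1.187, 0.965 and 0.777 in the wild-type pools, and 1455494_at had 0.959, 1.101 and 1.014 in the mutant pools, against 1.138, 0.986 and 0.872 in the wild-type pools. In both, mutant pool 2 and wild-type pool 1 were the highest and wild-type pool 3 was the lowest. The log2 difference of Col1a1 was 0.095 (SE 0.12), and it was -0.029 without wild-type pool 3. It was -0.331 with the sex mix of the pools, described at the end, as a covariate. For Col1a2, 1423110_at had 0.959, 1.162 and 1.027 in the mutant pools, against 1.075, 0.921 and 0.973 in the wild-type pools, and 1450857_a_at had 0.956, 1.046 and 0.862 in the mutant pools, against 1.044, 1.066 and 0.951 in the wild-type pools. The probe sets of Col1a2 differed in sign, at 0.083 and -0.099 on the log2 scale, and the gene was at -0.008 (SE 0.086), so the chains of type I gave no common direction.

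Col3a1 encodes the chain of type III collagen, found beside type I in vessels and loose tissue. Its probe set 1427883_a_at had ratios of 0.881, 1.252 and 0.994 in the mutant pools, against 1.006, 1.051 and 0.918 in the wild-type pools. The other, 1427884_at, had 1.007, 1.18 and 0.958 in the mutant pools, against 0.943, 0.993 and 1.13 in the wild-type pools. Mutant pool 2 was the highest in both, while the other mutant pools lay within the wild-type range or below it. The log2 difference was 0.047 (SE 0.10), and without mutant pool 2 it was -0.067.

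Type V collagen starts and limits the growth of type I fibrils. Col5a2 had the smallest p of the fibrillar genes, with ratios for 1422437_at of 1.076, 1.109 and 1.038 in the mutant pools, against 0.962, 0.915 and 0.955 in the wild-type pools. All mutant pools lay above all wild-type pools in this probe set. The second probe set, 1450625_at, had 1.032, 1.157 and 0.968 in the mutant pools, against 1.072, 0.896 and 0.898 in the wild-type pools, and here wild-type pool 1 lay above mutant pools 1 and 3. The log2 difference of Col5a2 was 0.16 (SE 0.082, 95% interval -0.018 to 0.35), and it was 0.026 with the sex mix of the pools, described at the end, as a covariate. Col5a1 was at 0.051 (SE 0.084), and its 3 probe sets gave 0.012, 0.021 and 0.12. For the last, 1416741_at, the ratios were 0.991, 1.009 and 1.035 in the mutant pools, against 1.158, 0.898 and 0.775 in the wild-type pools, so the wild-type pools covered the whole mutant range. The other probe sets of Col5a1 were 1416740_at, with 1.001, 1.105 and 0.946 in the mutant pools, against 1.041, 0.999 and 0.981 in the wild-type pools, and 1434479_at, with 0.98, 1.068 and 0.989 in the mutant pools, against 1.011, 1.024 and 0.958 in the wild-type pools. Their groups overlapped as well. Col5a3, another chain of type V, was at -0.053 (SE 0.082).

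**Figure D2:**
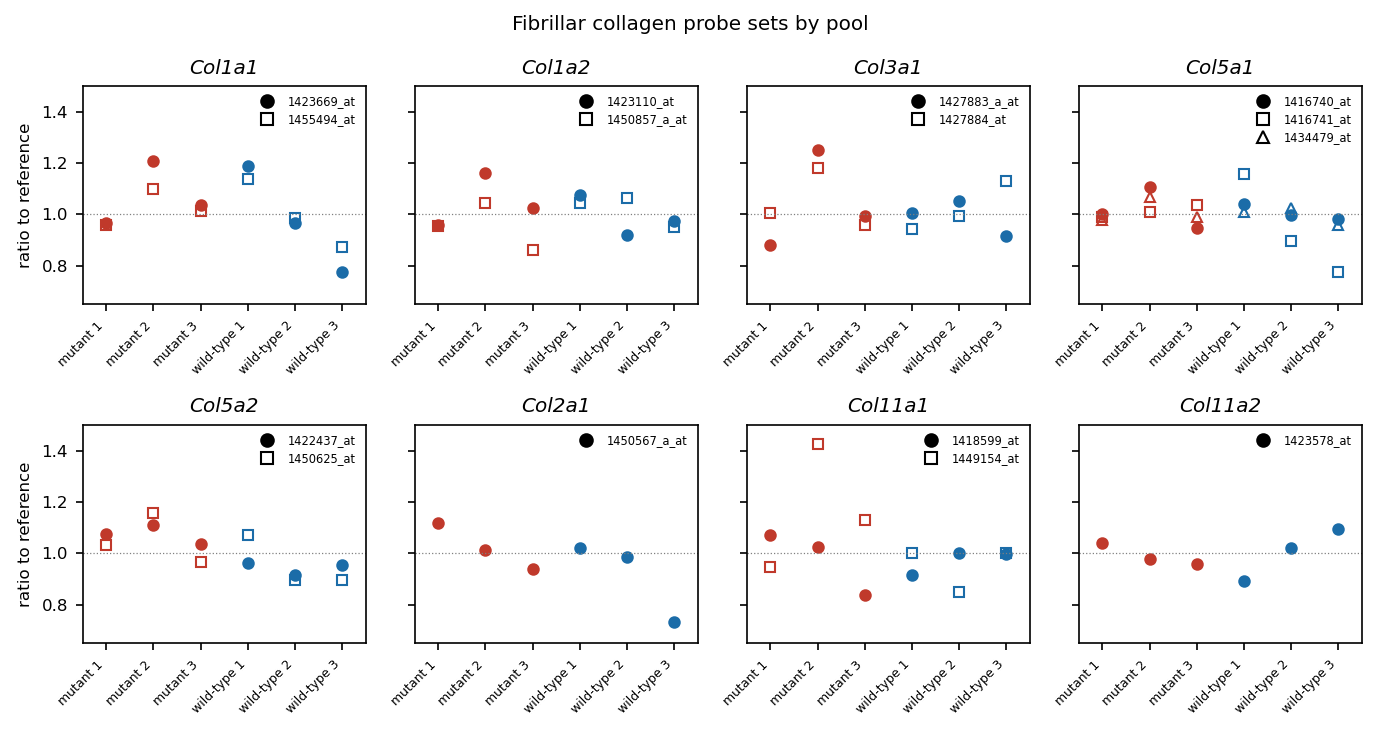
Deposited ratio of each probe set (vertical axis, 1 is the reference) in the 3 mutant pools (red) and 3 wild-type pools (blue) for 8 of the 9 fibrillar genes, with a marker shape per probe set. Mutant pool 2 carries the highest value of 1449154_at for Col11a1 (1.427), and wild-type pool 3 the lowest value of Col2a1 (0.733).

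Cartilage fibrils are made of type II collagen on a core of type XI. Col2a1, read by 1 probe set, had ratios of 1.12, 1.013 and 0.94 in the mutant pools, against 1.022, 0.987 and 0.733 in the wild-type pools. Wild-type pool 3 lay far below the other pools, and the other wild-type pools lay inside the mutant range. Its log2 difference was 0.18 (SE 0.13, 95% interval -0.10 to 0.46). It was 0.025 without wild-type pool 3 and -0.019 with the sex mix as a covariate. For Col11a1, 1449154_at had 0.948, 1.427 and 1.129 in the mutant pools, against 1, 0.849 and 1 in the wild-type pools, with mutant pool 2 on top, and 1418599_at had 1.072, 1.026 and 0.838 in the mutant pools, against 0.915, 1.001 and 0.999 in the wild-type pools. The log2 differences were 0.28 and 0.004, and both probe sets name the same transcript record. The gene was at 0.14 (SE 0.094), and at 0.047 without mutant pool 2. Col11a2 was at -0.012 (SE 0.089).

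Single pools held the extreme values of several fibrillar genes. Col1a2, Col3a1, Col5a2 and Col11a1 were highest in mutant pool 2, which is 4 of 9 fibrillar genes against 13.9% of all genes. The 9 fibrillar genes together had a mean log2 ratio of 0.012, 0.118 and -0.036 in the mutant pools and 0.026, -0.021 and -0.110 in the wild-type pools. The remaining 5 were highest in other pools: Col2a1 in mutant pool 1, Col1a1 and Col5a1 in wild-type pool 1, Col5a3 in wild-type pool 2 and Col11a2 in wild-type pool 3. Of the measured marker lists, the erythroid one took a like order of pools: its 5 genes, all with a positive difference, averaged 0.024, 0.231 and -0.020 in the mutant pools and -0.0005, -0.070 and -0.223 in the wild-type pools. None of the erythroid markers passed limma's adjusted threshold, and 2 of 5 had an unadjusted p under 0.05, against 2.67% of all genes. The part of blood cells in the collagen values was not tested. In pooled tissue, fewer cells of a kind and less RNA per cell cannot be told apart.

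For the fibrillar genes highest in mutant pool 2, the upstream sequence is shown where the RefSeq table (GRCm38.p6) held it. It is given as the 250 bases before the gene start that RefSeq gives, 5′ to 3′ on the plus strand. Capitals mark matches to CCAAT, the box bound by the CCAAT-binding factor NF-Y, to GGGCGG, the core of an Sp1 site, and to TATAAA, each searched on both strands with no overlaps found between them in these sequences. The windows are chr6:4505368-4505617 for Col1a2, chr1:45311288-45311537 for Col3a1 and chr3:114030290-114030539 for Col11a1.
Col1a2: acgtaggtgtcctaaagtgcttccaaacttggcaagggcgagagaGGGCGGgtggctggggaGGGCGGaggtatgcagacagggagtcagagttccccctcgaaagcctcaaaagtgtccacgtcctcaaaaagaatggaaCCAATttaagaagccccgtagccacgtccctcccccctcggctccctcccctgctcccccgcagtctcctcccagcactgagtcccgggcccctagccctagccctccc
Col3a1: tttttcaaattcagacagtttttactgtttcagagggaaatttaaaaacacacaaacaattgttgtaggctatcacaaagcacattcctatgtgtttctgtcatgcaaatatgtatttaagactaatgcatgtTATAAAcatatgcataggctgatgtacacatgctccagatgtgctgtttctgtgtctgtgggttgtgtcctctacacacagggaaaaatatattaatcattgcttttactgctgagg
Col11a1: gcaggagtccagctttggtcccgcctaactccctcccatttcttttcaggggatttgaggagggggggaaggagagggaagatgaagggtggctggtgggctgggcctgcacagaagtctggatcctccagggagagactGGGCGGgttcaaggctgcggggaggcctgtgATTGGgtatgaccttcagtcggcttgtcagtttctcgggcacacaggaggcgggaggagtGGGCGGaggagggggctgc
Col1a2 and Col11a1 each held 1 CCAAT and 2 GGGCGG matches, and Col3a1 held 1 TATAAA match only. Of the 30 windows that 27 of the 36 collagen genes have in this table, 12 held CCAAT (40.0%, against 33.8% of all 32851 windows), 16 held GGGCGG (53.3%, against 32.7%) and 5 held TATAAA (16.7%, against 12.4%). A match is a description of the letters only.

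**Figure D3:**
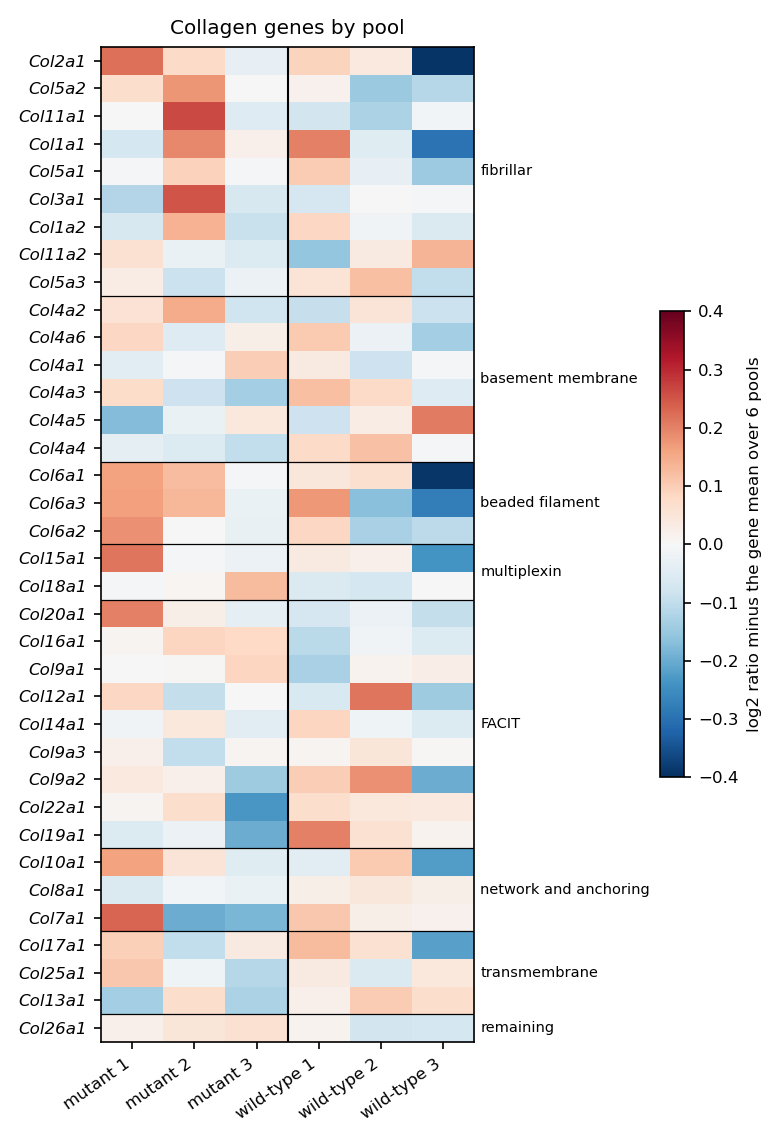
Log2 ratio of each collagen gene (mean of its probe sets) in each pool, after subtraction of the gene's mean over the 6 pools, with mutant pools left of the line and rows grouped by collagen type. Wild-type pool 3 is the lowest for 14 of 36 genes, among them Col2a1, Col1a1, Col6a1 and Col6a3.

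Basement membrane collagen of the embryo is built mainly from the chains of Col4a1 and Col4a2, which are transcribed away from each other from a shared promoter region; in RefSeq their starts lie 21 bases apart on opposite strands. For Col4a1, 1426348_at had ratios of 1.008, 0.976 and 1.033 in the mutant pools, against 1.16, 0.992 and 0.88 in the wild-type pools, and 1452035_at had 0.958, 1.042 and 1.136 in the mutant pools, against 0.927, 0.922 and 1.154 in the wild-type pools. Wild-type pools 1 and 3 swapped places between these probe sets. Col4a1 was at a log2 difference of 0.034 (SE 0.076). Col4a2 had 1.049, 1.119 and 0.955 in the mutant pools, against 0.947, 1.045 and 0.95 in the wild-type pools, with mutant pool 2 highest, and was at 0.085 (SE 0.085). These genes did not share their highest pool, which was mutant pool 3 for Col4a1 and mutant pool 2 for Col4a2.

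The other type IV chains form the networks of kidney, eye and some epithelia. Col4a4 had ratios of 0.99, 0.977 and 0.947 in the mutant pools, against 1.07, 1.1 and 1.01 in the wild-type pools. No mutant pool reached the lowest wild-type pool, at a log2 difference of -0.13 (SE 0.073, 95% interval -0.29 to 0.036). Col4a3, the neighbour and partner of Col4a4, had 1.044, 0.937 and 0.902 in the mutant pools, against 1.078, 1.045 and 0.956 in the wild-type pools, with overlap, and was at -0.096 (SE 0.085). For Col4a5, 1425475_at had 0.942, 0.966 and 1.034 in the mutant pools, against 0.984, 1.07 and 1.016 in the wild-type pools, and 1425476_at had 0.847, 1.012 and 1.042 in the mutant pools, against 0.921, 0.988 and 1.333 in the wild-type pools. The second had its highest value, 1.333, in wild-type pool 3, and the gene was at -0.10 (SE 0.095), or -0.026 without that pool. Col4a6 was at 0.037 (SE 0.084). Col4a3, Col4a4 and Col4a5 were thus on the negative side and Col4a1, Col4a2 and Col4a6 on the positive side, with every interval across 0. With the sex mix as a covariate Col4a5 was at 0.014 and Col4a1 at -0.058, so this split did not hold. Col4a5 and Col4a6 lie on the X chromosome.

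**Figure D4:**
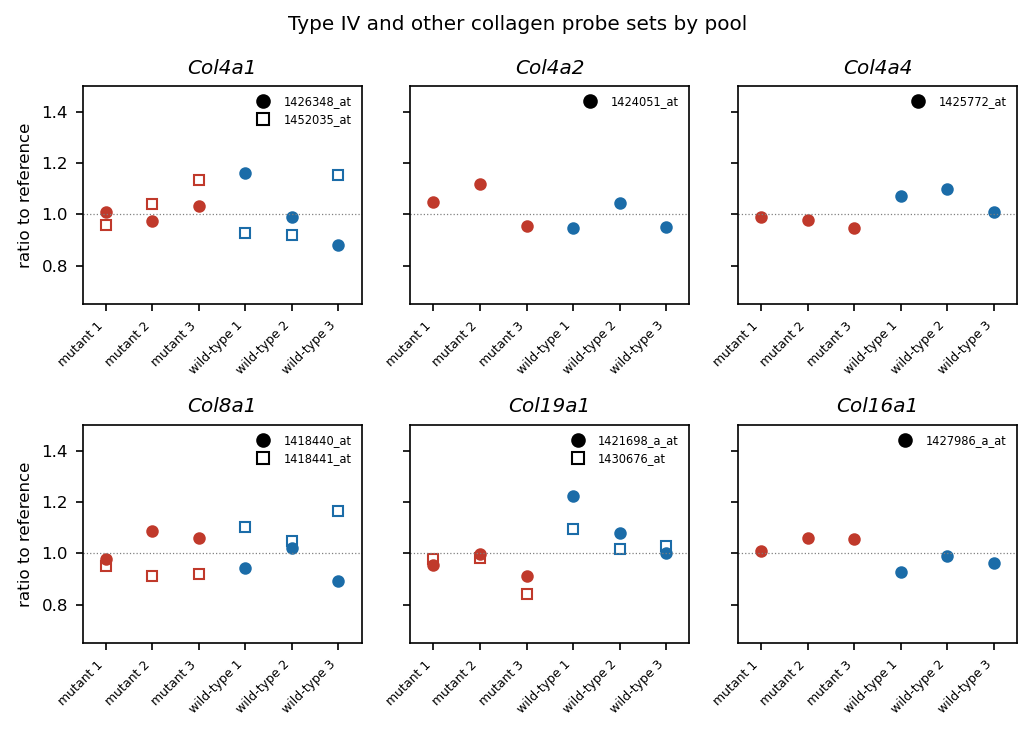
Deposited ratio of each probe set in the 3 mutant pools (red) and 3 wild-type pools (blue) for Col4a1, Col4a2, Col4a4, Col8a1, Col19a1 and Col16a1, with a marker shape per probe set. The 2 probe sets of Col8a1 run in opposite directions, while those of Col19a1 both lie lower in the mutant pools.

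Type VI collagen forms beaded microfilaments close to cells, and all 3 of its measured chains had a positive difference. Col6a1 had ratios of 1.077, 1.048 and 0.96 in the mutant pools, against 0.993, 1.007 and 0.736 in the wild-type pools. Wild-type pool 3 was low and the other wild-type pools lay inside the mutant range. The log2 difference of Col6a1 was 0.19 (SE 0.12), the largest of the 36 genes, and 0.039 without wild-type pool 3. Col6a3 was at 0.18 (SE 0.12), with 1.079, 1.055 and 0.945 in the mutant pools, against 1.087, 0.858 and 0.795 in the wild-type pools. For Col6a2, 1426947_x_at had 1.22, 1.017 and 0.983 in the mutant pools, against 1.075, 0.922 and 0.906 in the wild-type pools, and 1452250_a_at had 1.081, 1.001 and 0.999 in the mutant pools, against 1.065, 0.924 and 0.977 in the wild-type pools. Col6a2 was at 0.10 (SE 0.090), with groups that overlapped in both probe sets. With the sex mix as a covariate Col6a1 was at -0.001 and Col6a2 at 0.015.

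Types XV and XVIII sit at the outer face of basement membranes of vessels and epithelia, and a fragment of type XVIII is known as endostatin. Col18a1 had 1.013, 1.056 and 1.1 in the mutant pools, against 0.987, 0.971 and 0.952 in the wild-type pools by 1418237_s_at, where the mutant pools all lay higher, and 1.011, 0.989 and 1.12 in the mutant pools, against 0.964, 0.964 and 1.087 in the wild-type pools by 1426955_at, where they overlapped. It was at a log2 difference of 0.086 (SE 0.074). Col15a1 was at 0.12 (SE 0.10), lowest in wild-type pool 3 (0.843).

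The FACIT collagens attach to the surface of fibrils, and among them 3 of 9 had a positive difference. Col19a1, which is made in developing muscle of the mouse embryo, had the smallest p of the 36 genes. Its probe set 1421698_a_at had ratios of 0.955, 0.999 and 0.911 in the mutant pools, against 1.222, 1.078 and 1.001 in the wild-type pools. The other, 1430676_at, had 0.98, 0.981 and 0.843 in the mutant pools, against 1.095, 1.019 and 1.028 in the wild-type pools. No mutant pool reached the lowest wild-type pool in either, but in the first the closest values were 0.999 for mutant pool 2 and 1.001 for wild-type pool 3. The log2 difference was -0.18 (SE 0.084, 95% interval -0.37 to 0.003), and it was -0.315 with the sex mix as a covariate.

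Col16a1, another FACIT, had 1.009, 1.062 and 1.057 in the mutant pools, against 0.928, 0.991 and 0.963 in the wild-type pools, with all mutant pools higher, and was at 0.12 (SE 0.072). Type IX collagen coats the fibrils of cartilage. Its Col9a1 chain had 1.023, 0.996 and 1.089 in the mutant pools, against 0.9, 0.961 and 1.004 in the wild-type pools by 1421381_a_at and 0.952, 0.989 and 1.011 in the mutant pools, against 0.907, 1.037 and 1.012 in the wild-type pools by 1428571_at. It was at 0.059 (SE 0.077), and the groups overlapped in both. Col9a2 was at -0.055 (SE 0.11) and Col9a3 at -0.044 (SE 0.073). The probe sets 1420280_x_at and 1460693_a_at of Col9a3 had medians of 0.577 and 0.498 over the 6 pools, and were the only collagen probe sets whose median was not 1. The other FACIT genes were Col20a1 at 0.12, Col12a1 at -0.007, Col14a1 at -0.010 and Col22a1 at -0.10, all with intervals across 0.

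The network-forming and membrane-spanning types were mixed. Col8a1, a short-chain collagen of vessels and of the cornea, had 0.953, 0.913 and 0.919 in the mutant pools, against 1.104, 1.047 and 1.167 in the wild-type pools by 1418441_at and 0.977, 1.089 and 1.059 in the mutant pools, against 0.943, 1.023 and 0.894 in the wild-type pools by 1418440_at. The first lay wholly lower in the mutant pools, at -0.25 (SE 0.085), the largest difference among probe sets with a negative sign, and the second was at 0.13 (SE 0.091), although both carry the same transcript record. The gene value of Col8a1, -0.061 (SE 0.069), averages these opposite readings. Col10a1, of hypertrophic cartilage, was at 0.11 and Col7a1, of the anchoring fibrils of skin, at -0.099. Among the transmembrane collagens, Col13a1, found at muscle and nerve junctions, had 0.883, 1.017 and 0.888 in the mutant pools, against 0.983, 1.04 and 1.019 in the wild-type pools and was at -0.13 (SE 0.081). Col17a1, of epithelial hemidesmosomes, was at 0.020 and Col25a1 at -0.014. Col26a1 was at 0.086 (SE 0.071), with 1.002, 1.021 and 1.032 in the mutant pools, against 0.998, 0.94 and 0.941 in the wild-type pools, so its groups were parted only between 1.002 for mutant pool 1 and 0.998 for wild-type pool 1.

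How far the probe sets of a gene held together bounds the reading of these values. Of the 36 genes, 19 had more than 1 probe set and 17 had a single probe set. The sign was shared in 15 of the 19 and opposite in 4, which were Col1a2, Col8a1, Col9a3 and Col14a1. Among the 15, a probe set lay near 0 for Col4a1 (0.002), Col9a1 (2.0e-05) and Col11a1 (0.004), so a shared sign says little there. The widest gaps between probe sets of a gene were 0.38 for Col8a1 and 0.28 for Col11a1, and the narrowest were 0.023 for Col3a1, 0.030 for Col5a3 and 0.033 for Col19a1.

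Wild-type pool 3 had the lowest value in 14 of the 36 collagen genes, 38.9% against 18.8% of all genes. It had the highest value in 2 (5.56%, against 21.2% of all genes). Wild-type pool 1 was the highest most often, in 9 of the 36 (25%, against 14.1% of all genes). Mutant pool 1 was the highest in 8 (22.2%, against 18.1%), and mutant pool 2 was the lowest in 2 (5.56%, against 12.8%). The genes lowest in wild-type pool 3 came from most types: Col1a1, Col2a1, Col5a1, Col5a3, Col4a6, Col6a1, Col6a3, Col9a2, Col10a1, Col12a1, Col14a1, Col15a1, Col17a1 and Col20a1. The sclerotome markers averaged -0.031, -0.018 and 0.043 in the mutant pools and 0.095, -0.002 and -0.114 on the log2 scale in the wild-type pools, and this pool had the lowest mean. Of the 4 sclerotome transcription factors behind it, Pax1 was at -0.386 in wild-type pool 3, while Pax9 was at -0.030, Nkx3-2 at 0.0014 and Sox9 at -0.042, so the low mean came mainly from Pax1. Wild-type pool 3 also had the lowest mean of the erythroid (-0.223), lateral plate and limb (-0.133) and decidual (-0.093) markers. It had the highest mean of the 6 pools for the somite (0.267) and neural tube (0.105) markers. The part of cell makeup in the low collagen values of this pool was not tested.

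**Figure D5:**
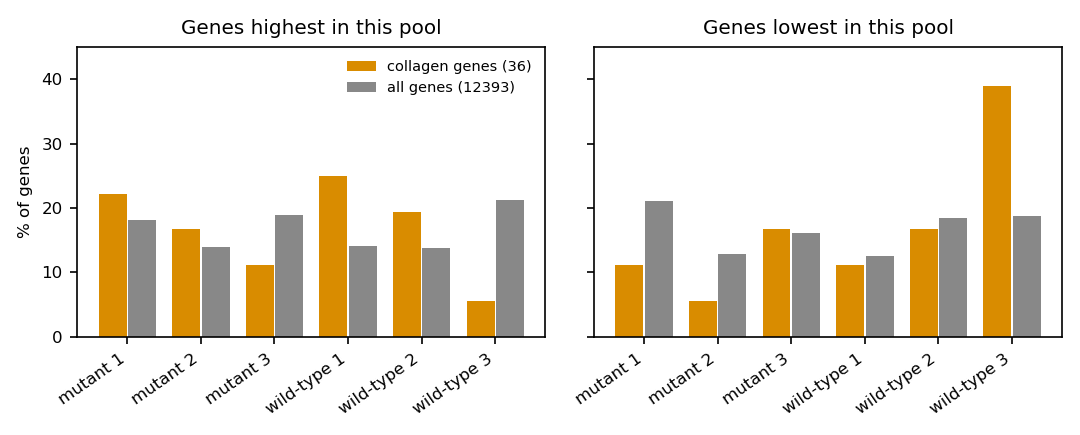
Share of genes (vertical axis, %) that have their highest value (left) or their lowest value (right) in each of the 6 pools, for the 36 collagen genes and all 12393 genes. Wild-type pool 3 holds the lowest value of 38.9% of collagen genes, against 18.8% of all genes.

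Collagen chains need dedicated enzymes and partners before they form fibrils, and 30 of 39 listed genes of this machinery were measured. None of the 30 passed the adjusted threshold, and 1 of 30 had an unadjusted p under 0.05, against 2.67% of all genes. A positive difference was found for 19 and a negative one for 11, with a median of 0.037 against 0.003 over all genes. The members of smallest p were Fmod, a fibril-bound proteoglycan, at -0.15 (SE 0.069), Plod3, a lysyl hydroxylase, at 0.16 (SE 0.085), Tll1, a procollagen-cleaving protease, at -0.12 (SE 0.073), and Pcolce2, which enhances that cleavage, at -0.15 (SE 0.10). Serpinh1, the collagen chaperone, was at 0.011 (SE 0.078), and Lox, which cross-links fibrils, at -0.044 (SE 0.072). Among matrix proteins of this list, mutant pool 2 was the highest pool for Sparc (0.245), Lum (0.350) and Dcn (0.207). It was not for Bgn (-0.070) or Fmod (-0.173). Serpinh1, Lox, Sparc, Lum, Dcn, Bgn and the pool value of Fmod were chosen after the values were seen.

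Collagen receptors were measured for 6 of 9 genes, with 5 positive, 1 negative and a median of 0.054. None passed, and 0 of 6 had an unadjusted p under 0.05, against 2.67% of all genes. Mrc2, an uptake receptor, was at 0.082 (SE 0.078), the discoidin receptors Ddr2 and Ddr1 were at 0.11 (SE 0.12) and 0.056 (SE 0.071), and Itga2, an integrin chain, was at -0.088 (SE 0.093). Genes of collagen breakdown were measured for 12 of 13, with 5 positive, 7 negative and a median of -0.007. Of these 12, none passed and 1 had an unadjusted p under 0.05, against 2.67% of all genes. Mmp8, a collagenase of neutrophils, was at 0.27 (SE 0.092), with log2 ratios of 0.332, 0.124 and 0.023 in the mutant pools, against -0.023, -0.155 and -0.138 in the wild-type pools. These groups did not overlap, and the same held for 7.46% of all genes. Mmp14 was at 0.088 (SE 0.082), Timp4 at -0.079 (SE 0.082) and Mmp2 at 0.12 (SE 0.12), the last with a low value, -0.364, in wild-type pool 3.

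Markers of the cell types in or near the dissected tissue gave no gene past limma's adjusted threshold in any of 12 lists. Besides the erythroid list, an unadjusted p under 0.05 was found for 1 of 6 heart and 1 of 8 yolk sac and endoderm genes. The share over all genes was 2.67%. Positive differences were found for 2 of 6 somite, 2 of 4 sclerotome, 0 of 3 notochord, 6 of 8 endothelial, 4 of 6 heart, 5 of 8 yolk sac and endoderm, 6 of 7 surface ectoderm, 3 of 5 neural tube, 1 of 2 neural crest, 4 of 5 lateral plate and limb, 5 of 5 erythroid and 3 of 4 decidual genes. Dll3 itself was at -0.021 (SE 0.073), and since the sources used here do not place its probe set relative to the insertion, this value does not check the labels. The level of Xist minus that of the Y-linked genes was 0.045, 0.814 and 0.729 in the mutant pools and -0.085, -1.476 and -1.730 in the wild-type pools, so the sex mix of the pools ran with genotype. With that score as a covariate 15 of 36 collagen genes had a positive difference, with a median of -0.004, and sex mix and genotype can be separated only in part.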

How the data were processed

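RNA of 6 pools was read on Affymetrix MOE430A arrays. The authors deposited a single table of 22690 probe sets, whose values are linear ratios: they run from 0.266 to 2.498, and 93.4% of rows have a median of 1 (within 0.0015), while 1497 have a lower one. The submitters' processing notes list RMA and MAS5 with neither a version nor the step each served, and the sources used here do not say how arrays were scaled. Signal levels cannot be recovered from ratios, which left no way to filter dim probe sets, and the noise of a dim probe set can look like a difference.

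After removal of 64 control probe sets, log2 ratios (no pseudocount) of 22626 probe sets were fitted with limma 3.58.1 in R 4.3.3 (genotype only, two-sided, Benjamini-Hochberg threshold 0.05). Gene values are means over probe sets with 1 gene symbol (20380, of which 20351 matched the GRCm38.p6 gene table; 691 had several symbols and 1555 none), fitted over 12393 genes. With 3 against 3 pools an exact permutation test cannot go below 0.1. Lists are described by counts and medians, without a test. The fit was tested on simulated data with planted differences larger than those of the collagen genes, so that test does not cover differences of their size. Values by pool are given for 13 collagen genes of common types and the 3 of smallest p in each class, and for other members where the text dwells on them. Up to 4 genes of smallest p are named per pathway list. Members and lists were chosen with earlier results of these data known. Figures were drawn with matplotlib 3.10.9.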

Additional observations from a re-analysis of the deposited data

How the results depend on the processing

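Over 16 alternatives, collagen probe sets past the adjusted threshold stayed at 0, and of all probe sets 1 passed with the replicate block, with array weights and without wild-type replicate 1. The count at an unadjusted p under 0.05 was 0 to 4 of 58 collagen probe sets (2 as reported), with 0 when both pools numbered 3 were left out, 4 without wild-type replicate 1, 4 with array weights and 4 with the replicate block. Over all probe sets it was 267 with the sex score, 1770 with array weights, 1072 with the replicate block and 319 to 1229 with pools left out, against 595. Settings that leave out pools use fewer of them; otherwise, for each value below, the cause was not tested. The replicate block left the median of the collagen genes at 0.036 and 20 positive genes. Deviations of same-numbered pools correlated at 0.368, -0.025 and 0.37 over probe sets, and those of differently numbered pools at -0.427 to 0.197. These values do not settle whether pools of the same number belong together. With the sex score the median of fibrillar genes was -0.019 (0.051 as reported), of type IV genes -0.074, of other types -0.001, of collagen biosynthesis -0.024 and of breakdown 0.026, and Col5a2 was at 0.026. With array weights the median of other types was -0.009 and that of breakdown -0.051. With quantile normalization the median of other types was -0.006 and 19 collagen genes were positive. Median centring turned the median of all genes to -0.0009. When each gene was read by its most variable probe set, the collagen median was 0.054 with 22 positive genes, and the fibrillar median 0.12. In that setting the receptor median was 0.095 and the breakdown median 0.022. The receptor median was 0.015 without both pools numbered 3. Leaving out each pool gave 0.018 (without mutant replicate 2) to 0.115 (without wild-type replicate 1) for the fibrillar median, -0.04 to 0 for type IV, -0.006 to 0.071 for other types, -0.029 to 0.014 for breakdown, and -0.003 to 0.051 for all collagen genes, negative without wild-type replicate 3. Of 19 collagen genes followed, 11 kept their sign throughout. With the sex score the sign turned for Col1a1 (-0.331), Col2a1 (-0.019), Col4a1 (-0.058), Col4a5 (0.014), Col5a1 (-0.148) and Col6a1 (-0.001), and without both pools numbered 3 for Col1a1 (-0.016), Col1a2 (0.004) and Col4a1 (-0.001). Col1a2 was at 0.028 with array weights and 0.083 by its most variable probe set. With single pools left out Col1a1 was at -0.029 to 0.22, Col1a2 at -0.08 to 0.034, Col3a1 at -0.067 to 0.117, Col4a1 at -0.006 to 0.064 and Col5a1 at -0.009 to 0.115. Quantile normalization, median centring, the variance trend and the removal of _x_at and _s_at probe sets or of rows with a median below 1 turned the sign of none of the 19 genes. Signal over background is unknown here and may limit any of these values.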
